A study of Rattus norvegicus with 6 samples.

Results

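The 10 genes described here encode parts of the basement membrane and the matrix around it: the laminin chains Lama4, Lama5, Lamb1, Lamb2 and Lamc1, the nidogens Nid1 and Nid2, fibronectin (Fn1), and the collagen-binding glycoproteins Sparc and Sparcl1. They were chosen by symbol as basement membrane genes of capillarization, and all 10 were found among the 32623 genes of the files. RNA sequencing was done on polyA RNA of primary liver sinusoidal endothelial cells from Han Wistar rats, the fenestrated cells that line the liver's capillaries. They were kept for 48 h in a perfused device that also held hepatocytes, stellate cells and macrophages, and the flow exerted 1.15 dyn/cm2 of shear. The 3 pathological libraries came from cultures at 12 mmHg, a level labelled pathological as in portal hypertension, and the 3 physiological libraries from cultures at 1 mmHg. All groups carried the same shear, duration and companion cells. The labels give neither the age and sex of the rats nor whether libraries came from separate animals, so each p-value reflects the spread among these libraries, which may be technical.

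A basement membrane is a thin sheet in which laminin, a cross-shaped trimer of an alpha, a beta and a gamma chain, forms a network that cells bind through integrins and dystroglycan. Nidogens bridge that laminin network, at its gamma chain, to the collagen IV network. Healthy liver sinusoids have no continuous basement membrane, and the space beneath their endothelium holds fibronectin and scattered matrix. In fibrosis and portal hypertension the endothelium loses its fenestrae and lays down laminin and collagen IV, a change called capillarization. Whether raised pressure alters these genes in the endothelium is the question the comparison of 12 with 1 mmHg addresses here.

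The libraries differed in depth, in the number of genes seen and in transcripts of other liver cells, in a way that crossed the pressure groups. Totals ran from 8925136 to 24025396 counts. Genes with at least 1 count numbered 16769, 13729 and 10234 in pathological replicates 1, 2 and 3, and 17189, 12833 and 10649 in physiological replicates 1, 2 and 3. A list of 30 hepatocyte genes, 29 of them matched, summed to 485, 834 and 77455 CPM (counts scaled to the library's total) in the pathological libraries and to 320, 55446 and 39686 CPM in the physiological libraries. Pathological replicates 1 and 2 and physiological replicate 1 are called hepatocyte-poor below, and the other 3 libraries, each above 10000 CPM, hepatocyte-rich. Mitochondrial genes summed to 4886, 3879 and 53496 CPM in pathological replicates 1, 2 and 3. In physiological replicates 1, 2 and 3 they summed to 13494, 44604 and 197370 CPM, and the last of these libraries also had the lowest total. The sinusoidal endothelial list summed to 564 to 8920 CPM at 12 mmHg and 2380 to 8383 CPM at 1 mmHg, and was likewise highest in hepatocyte-rich libraries. A list of general endothelial genes summed to 1050, 876 and 2547 CPM in pathological replicates 1, 2 and 3 and to 1951, 2944 and 1678 CPM in physiological replicates 1, 2 and 3. Its genes did not move together. Cdh5 (VE-cadherin) stood at 183 to 220 CPM at 12 mmHg and 214 to 319 CPM at 1 mmHg, while Emcn (endomucin) stood at 2.24, 9.48 and 227 CPM in the pathological and 7.08, 265 and 256 CPM in the physiological libraries, high in the hepatocyte-rich ones, and Cldn5 was at 0 throughout. In these bulk samples, fewer cells of a type and less RNA per cell cannot be told apart.

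No member passed the threshold between the pressures. By edgeR's quasi-likelihood test, fitted over the 12742 genes that passed a filter on low counts, which all 10 members did, 0 of 10 passed at a Benjamini-Hochberg adjusted p under 0.05, and 0 of 10 at an unadjusted p under 0.05. The shares over all genes tested were 0% and 0.259%. The fitted log2 fold change, 12 mmHg over 1 mmHg, was negative for 9 of 10 members (all but Lamc1), against 47.5% of all genes tested, with a median of -0.80 against 0.05. Without pathological replicate 2 it was negative for 7 of 10, with a median of -0.27. Marker lists of several cell types leaned the same way over all 6 libraries: 17 of 18 sinusoidal endothelial genes tested were negative (median -0.68), as were 13 of 16 general endothelial genes (-0.63), 26 of 29 hepatocyte genes (-0.40) and 12 of 16 stellate cell genes (-0.85). With totals scaled as described below, 2 of 10 members, Nid1 and Lamb2, had all 12 mmHg values under all 1 mmHg values. This held for 3.05% of all genes. No member lay the other way, against 1.56%. On plain library totals the groups overlapped for both Nid1 and Lamb2. DESeq2 called 0 of 10 members at an adjusted p under 0.05, against 0.293% of genes. limma-voom called 0 members too, although Lama4 and Nid1 had an unadjusted p under 0.05 there, against 1.25% of genes. With sample weights limma-voom again called 0, with 5 members at an unadjusted p under 0.05, against 19.8% of genes. Of these, Lama4, Nid1, Sparc and Sparcl1 were negative and Lama5 was positive, at 6.61. The levels given from here on are CPM computed with totals scaled by the trimmed mean of M values (TMM). They depend on transcript length, so they compare libraries and not genes.

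**Figure D1:**
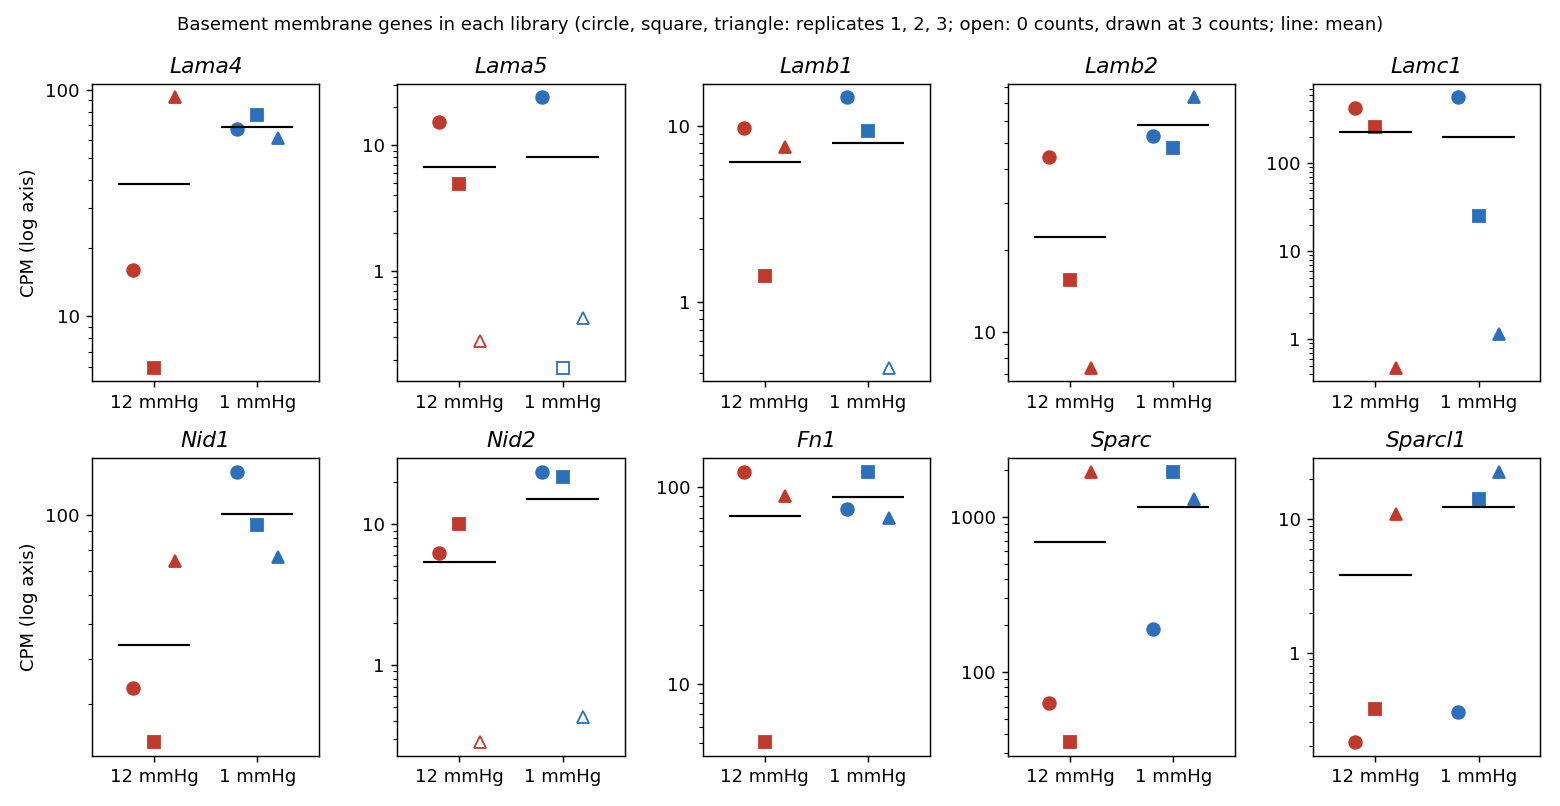
Level of each member in every library, in CPM on a log axis, with the 12 mmHg libraries in red on the left of each panel and the 1 mmHg libraries in blue on the right. Circles, squares and triangles are replicates 1, 2 and 3, the line is the group mean, and open symbols mark 0 counts, drawn at the level of 3 counts. On these TMM-scaled levels the groups separate for Nid1 and Lamb2 alone, and both of these overlap on plain totals.

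Promoters of 7 of the 10 members, 250 bases before to 50 bases after the start of the gene, were in the RefSeq table of build GRCr8, which had no entry for Lamb2, Nid2 and Fn1. For the deposited counts the sources name no build. The 4 sequences shown belong to the members whose levels set the pattern below: Lamc1 and Sparc, which ran opposite ways across libraries, and Lama4 and Nid1, each the other's nearest member in pattern. Capitals mark matches, on both strands, to the TATA box TATAAA, the GC box GGGCGG, the CACCC box CCACCC bound by Kruppel-like factors, the AP-1 site TGANTCA or the TEAD site CATTCC. Matches can share bases, as the GC box and CACCC box do in Nid1 and the TEAD site and GC box in Lamc1.
Lamc1, chr13:68051937-68052236, minus strand.
Lamc1: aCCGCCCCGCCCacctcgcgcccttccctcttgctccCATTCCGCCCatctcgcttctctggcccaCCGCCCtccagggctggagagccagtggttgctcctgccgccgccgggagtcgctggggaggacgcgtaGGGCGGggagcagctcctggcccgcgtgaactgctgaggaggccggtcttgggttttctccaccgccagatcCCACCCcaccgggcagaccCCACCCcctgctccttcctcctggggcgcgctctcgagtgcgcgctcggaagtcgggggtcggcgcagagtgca
Sparc, chr10:40038767-40039066, minus strand.
Sparc: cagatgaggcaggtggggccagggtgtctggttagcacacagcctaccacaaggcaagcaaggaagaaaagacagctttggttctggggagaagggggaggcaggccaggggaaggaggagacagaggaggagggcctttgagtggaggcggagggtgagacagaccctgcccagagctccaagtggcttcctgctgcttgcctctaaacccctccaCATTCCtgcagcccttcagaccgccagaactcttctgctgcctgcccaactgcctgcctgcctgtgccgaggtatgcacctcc
Lama4, chr20:43946648-43946947, plus strand.
Lama4: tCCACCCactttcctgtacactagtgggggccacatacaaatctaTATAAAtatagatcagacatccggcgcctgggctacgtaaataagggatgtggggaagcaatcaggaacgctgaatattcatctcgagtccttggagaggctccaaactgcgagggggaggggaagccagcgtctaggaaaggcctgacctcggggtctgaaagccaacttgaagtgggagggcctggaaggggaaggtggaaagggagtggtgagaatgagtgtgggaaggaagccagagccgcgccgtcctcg
Nid1, chr17:93069036-93069335, plus strand.
Nid1: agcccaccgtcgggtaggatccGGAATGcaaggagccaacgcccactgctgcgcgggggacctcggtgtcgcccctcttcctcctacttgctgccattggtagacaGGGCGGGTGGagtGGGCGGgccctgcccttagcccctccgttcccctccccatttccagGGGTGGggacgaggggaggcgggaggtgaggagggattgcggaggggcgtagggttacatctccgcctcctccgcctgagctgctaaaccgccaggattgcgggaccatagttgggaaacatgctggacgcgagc
The Lamc1 window, at 71.7% G and C, held 5 GC boxes, and the Sparc window, at 61.0%, held 0. The GC box occurred in 4 of the 7 member windows and in 33.1% of the 33469 windows in the table. The CACCC box occurred in 5 of 7, against 29.4%, and the TEAD site in 3 of 7 (Lamc1, Sparc and Nid1), against 14.2%. The TATA box occurred in 1 of 7 (Lama4), against 14.2%, and the AP-1 site in 0 of 7, against 7.33%. These matches describe letters and mark no binding.

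Among the laminin alpha chains, Lama4, the alpha chain typical of endothelial basement membranes, stood at 16.1, 5.94 and 92.8 CPM in pathological replicates 1, 2 and 3, against 67.3, 77.3 and 61.3 CPM in physiological replicates 1, 2 and 3. The 1 mmHg libraries lay close together, while the 12 mmHg group held both the lowest levels and the highest, so the groups overlapped. Means were 38.3 ± 47.5 CPM at 12 mmHg and 68.6 ± 8.08 CPM at 1 mmHg (SD, n = 3 each), and the log2 fold change was -0.84 (95% CI -3.28 to 1.59, edgeR unadjusted p = 0.448). Without pathological replicate 3 it was -2.63, and without pathological replicate 2 it was -0.34. Pathological replicate 3 is the only hepatocyte-rich library at 12 mmHg, and physiological replicate 1 the only hepatocyte-poor one at 1 mmHg. With either left out, here and below, pressure and hepatocyte class cannot be told apart.

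Lama5, the alpha chain of laminins in mature vessel walls and epithelia, stood at 15.3, 4.95 and 0 CPM in the pathological libraries, against 23.9, 0 and 0 CPM in the physiological libraries. It was thus present in the 3 hepatocyte-poor libraries, with 429, 105 and 731 counts in pathological replicates 1 and 2 and physiological replicate 1, and had 0 counts in the 3 hepatocyte-rich ones. At 3 counts, those zeros allow up to 0.283 CPM in pathological replicate 3, and 0.173 and 0.426 CPM in physiological replicates 2 and 3, for counting error only. The log2 fold change was -0.24 (95% CI -7.03 to 6.54), an interval too wide to give a direction. Without physiological replicate 1 the remaining 1 mmHg libraries held no count.

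Among the beta chains, Lamb2, a chain of vascular and synaptic laminins, stood at 44.3, 15.5 and 7.36 CPM in the pathological libraries, against 53.0, 47.9 and 73.7 CPM in the physiological libraries. Every 12 mmHg level was under every 1 mmHg level, with means of 22.4 ± 19.4 CPM at 12 mmHg and 58.2 ± 13.6 CPM at 1 mmHg (SD, n = 3 each). On plain totals the groups overlapped. Pathological replicate 1 had 1243 of 23754750 counts, a larger share than the 832 of 17117835 in physiological replicate 2. The log2 fold change was -1.38 (95% CI -3.57 to 0.82, edgeR unadjusted p = 0.185, adjusted p = 1.00), so the separation did not exceed the spread the test allows. It stayed negative with any 1 library left out, between -2.35 without pathological replicate 1 and -0.95 without pathological replicate 3. The other beta chain, Lamb1, stood at 9.79, 1.42 and 7.64 CPM in the pathological libraries, against 14.6, 9.45 and 0 CPM in the physiological libraries. Its groups overlapped, and its log2 fold change was -0.35 (95% CI -5.32 to 4.61), or 0.47 without physiological replicate 1 and 0.11 without pathological replicate 2.

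Lamc1, the gamma chain shared by most laminins and the one nidogens bind, varied most among the members. It stood at 425, 258 and 0.472 CPM in the pathological libraries, against 560, 24.7 and 1.14 CPM in the physiological libraries. In counts these levels were 11935, 5463 and 5 at 12 mmHg, and 17095, 429 and 8 at 1 mmHg. The highest level was 1187 times the lowest, and 1.37% of genes tested had a larger standard deviation of log2 CPM over the 6 libraries. All 3 hepatocyte-poor libraries were above all 3 hepatocyte-rich ones, whichever the pressure. The log2 fold change between the pressures was 0.22 (95% CI -4.52 to 4.96). It was negative without pathological replicate 1 (-0.61), physiological replicate 2 (-0.31) or physiological replicate 3 (-0.37), and 4.24 without physiological replicate 1. The fit giving 4.24 had no hepatocyte-poor library at 1 mmHg. With all libraries and totals as the only scaling, the log2 fold change was -0.01.

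Of the nidogens, Nid1 stood at 33.2, 23.6 and 74.5 CPM in the pathological libraries, against 131, 93.5 and 76.5 CPM in the physiological libraries. The groups did not overlap, but pathological replicate 3 and physiological replicate 3 lay side by side, with 790 and 539 counts. On plain totals, 11426295 and 8925136 counts, the first of these libraries was above the second, so the groups overlapped. Means were 43.8 ± 27.1 CPM at 12 mmHg and 100.5 ± 28.1 CPM at 1 mmHg (SD, n = 3 each). The log2 fold change was -1.20 (95% CI -2.89 to 0.49, edgeR unadjusted p = 0.140, adjusted p = 1.00), the smallest p among the members. Leaving out pathological replicate 3 gave -1.82 and leaving out physiological replicate 1 gave -0.90, and the spread over libraries was the narrowest of the members, with 76.8% of genes tested more variable. Nid2, its relative with overlapping function, stood at 6.23, 9.999 and 0 CPM in the pathological libraries, against 23.6, 21.6 and 0 CPM in the physiological libraries. Both replicate 3 libraries had 0 counts of Nid2. In the other libraries both 12 mmHg levels were under both 1 mmHg levels. The libraries at 0 were set aside for that order, and its share over all genes was not computed. The log2 fold change of Nid2 over all 6 libraries was -1.48 (95% CI -7.14 to 4.19).

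Fn1 encodes fibronectin, made in plasma form by hepatocytes and in cellular form by endothelial and stellate cells, forms that gene counts do not tell apart. It stood at 119, 5.05 and 90.6 CPM in the pathological libraries, against 77.7, 120.0 and 69.3 CPM in the physiological libraries. Pathological replicate 2 was far under the other 5 libraries, which lay within the same range. The log2 fold change was -0.31 (95% CI -2.67 to 2.04) with all libraries and 0.24 without pathological replicate 2, so its sign turned when that library was left out. In the hepatocyte-rich libraries, which do not include that library, it was -0.05.

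Sparc, a collagen-binding matrix protein that also binds calcium, stood at 63.6, 35.5 and 1959 CPM in the pathological libraries, against 191, 1957 and 1305 CPM in the physiological libraries. The 3 high libraries were the hepatocyte-rich ones. Among the hepatocyte-poor ones, both at 12 mmHg were under the 1 at 1 mmHg. The log2 fold change was -0.75 (95% CI -4.16 to 2.66) over all libraries, -4.52 without pathological replicate 3 and -0.11 without physiological replicate 2. Sparcl1, its anti-adhesive relative, stood at 0.214, 0.377 and 10.9 CPM in the pathological libraries, against 0.360, 14.2 and 22.8 CPM in the physiological libraries. It had 6 and 8 counts in pathological replicates 1 and 2 and 11 in physiological replicate 1, too few to compare these libraries. Its log2 fold change was -1.70 (95% CI -6.83 to 3.43), and -5.35 without pathological replicate 3. The fits without that library had no hepatocyte-rich library at 12 mmHg, so for Sparc and Sparcl1 they cannot tell pressure from class.

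**Figure D2:**
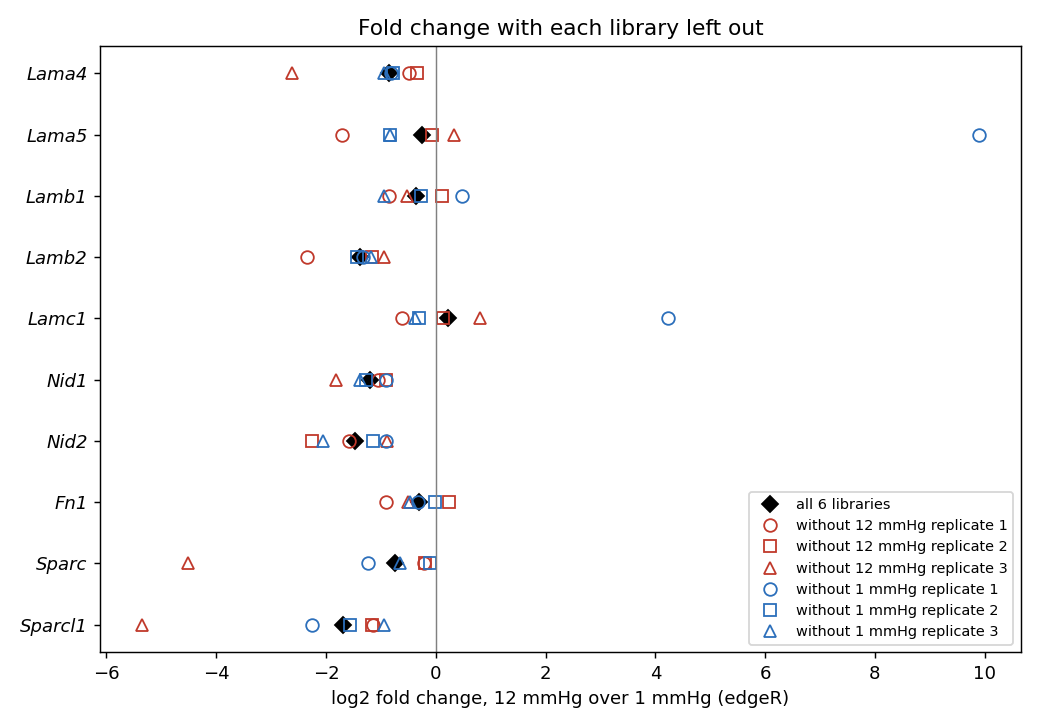
Log2 fold change of each member, 12 mmHg over 1 mmHg, from edgeR, with all 6 libraries (black diamonds) and with each library left out (open symbols, red for a 12 mmHg and blue for a 1 mmHg library). Lamb2, Nid1, Nid2, Lama4, Sparc and Sparcl1 stay below 0 throughout, while Lama5, Lamb1, Lamc1 and Fn1 fall on both sides.

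Paralogs of a family were also set against each other within each library, since such a ratio does not depend on library scaling. In percent of both genes' counts, Lama5 made up 48.8% and 45.5% in pathological replicates 1 and 2, against 26.2% in physiological replicate 1, and 0% in the other 3 libraries. The mean difference in the log2 ratio of counts, 12 minus 1 mmHg, with 0.5 added to each count, was -0.04 for Sparcl1 to Sparc (exact two-sided permutation p = 1.0). The other 3 pairs each hold a gene at 0 in some library, where the ratio is a limit set by the added 0.5, so their differences are not sizes. They were 3.79 for Lama5 to Lama4 (exact permutation p = 0.3, adjusted over 4 ratios 1.0), -2.89 for Lamb2 to Lamb1 (exact permutation p = 0.5) and 0.13 for Nid2 to Nid1 (exact permutation p = 0.9). Without physiological replicate 3, where Lamb1 is at 0, the Lamb2 to Lamb1 difference was -0.25, and that of Lama5 to Lama4 ran from 1.86 to 7.38 with each library left out in turn. The groups overlapped for all 4 ratios, and 3 libraries against 3 cannot give a p below 0.1.

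Because hepatocyte RNA crossed the groups, the pressures were compared again within each class of library, with an arm of 1 library each time. The fold changes within a class are therefore given as values, with no p-value or interval. Among the hepatocyte-poor libraries, all 10 fold changes were negative, against 54.4% of genes. Levels of 8 of 10 members were lower in both pathological replicates 1 and 2 than in physiological replicate 1, against 41.2% of genes, the exceptions being Fn1 and Sparcl1, the second on 8 against 11 counts, too few to rank. A single 1 mmHg library, physiological replicate 1, carries all of these values. Its sinusoidal endothelial list summed to 2380 CPM, against 1131 and 564 CPM in pathological replicates 1 and 2. Its general endothelial list summed to 1951 CPM, against 1050 and 876 CPM. The part of this in the members' fold changes was not tested. Lama4, Nid1 and Sparc had log2 fold changes of -2.59, -2.20 and -1.93, which rest on that library too. Among the hepatocyte-rich libraries, they were 0.43 for Lama4, -0.18 for Nid1 and 0.28 for Sparc, and 6 of 9 members tested were negative, against 61.4% of genes, with a median of -0.18 against -0.58 for all genes. Levels of 4 of 10 members, Lamb2, Lamc1, Nid1 and Sparcl1, were lower in pathological replicate 3 than in both physiological replicates 2 and 3, against 33.8% of genes, although Lamc1 rests on 5 counts in pathological replicate 3 against 8 in physiological replicate 3, too few to rank. For Lamb2 the log2 fold change there was -3.02. In that class 0 members were called, against 1.93% of genes. Nid2 had 0 counts in pathological replicate 3, against 375 and 0 in physiological replicates 2 and 3. Whether the effect of pressure differs between the classes was not tested. With log2 of the hepatocyte sum as a covariate, 9 of 10 fold changes were negative, against 59.3% of genes, and 0 members passed. With it, the median over all genes was -0.24 and that of the members -1.24.

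**Figure D3:**
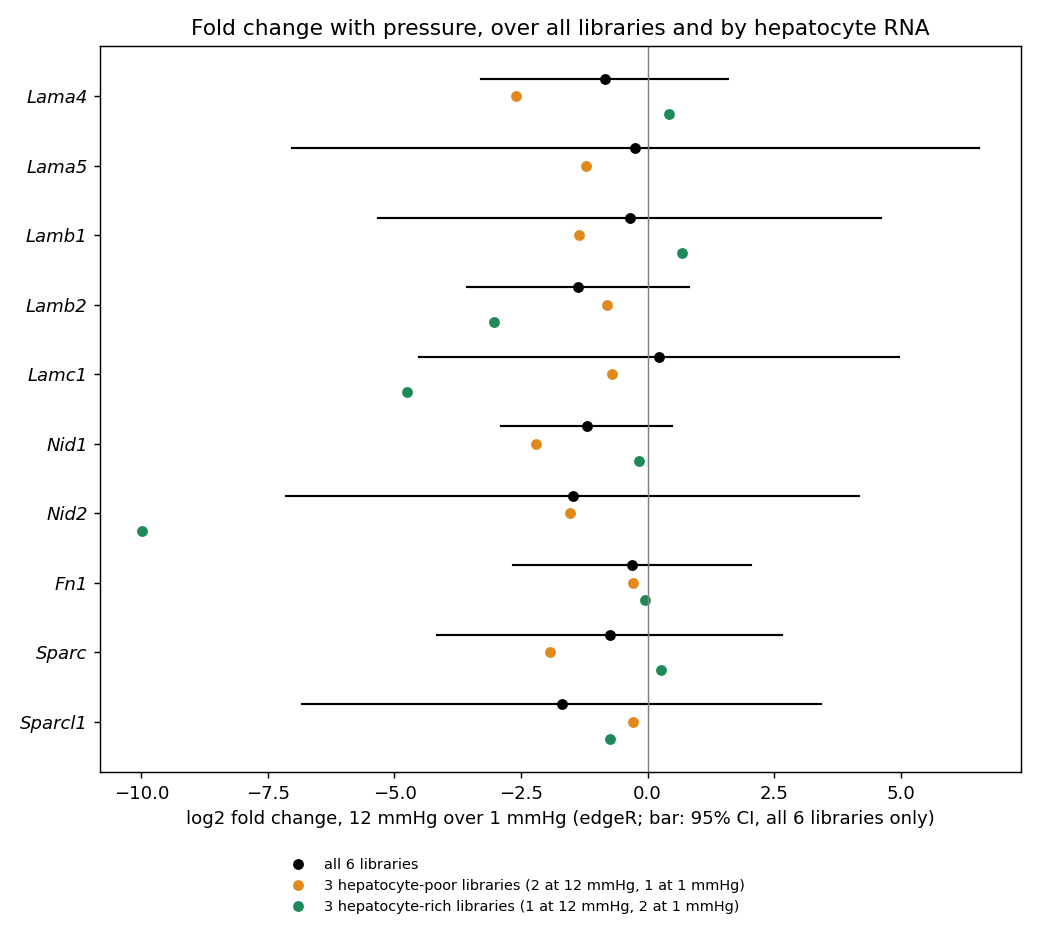
Log2 fold change of each member, 12 mmHg over 1 mmHg, from edgeR, over all 6 libraries (black, with the 95% confidence interval), the 3 hepatocyte-poor libraries (orange) and the 3 hepatocyte-rich ones (green), which have no interval because 1 pressure has a single library in each. Every interval over all 6 libraries includes 0, Lama5 had no count in the hepatocyte-rich class, and the green point of Nid2, set by a library at 0 counts, is no size.

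Across libraries, Sparc and Sparcl1 were higher in every hepatocyte-rich library than in every hepatocyte-poor one, an order seen for 18.3% of all genes tested. Lamc1 and Lama5 had the opposite order, as did 30.2% of genes. The other 6 members had neither. Some marker lists of cells that could supply these transcripts were also higher in every hepatocyte-rich library. The stellate cell list summed to 496 to 2866 CPM at 12 mmHg and 740 to 2266 CPM at 1 mmHg, with Lum at 0 throughout. Its Reln (reelin), on the same plain totals, ran the other way, at 501, 388 and 0.875 CPM in the pathological and 655, 79.7 and 20.3 CPM in the physiological libraries. Without Reln the list summed to 61.8, 107 and 2865 CPM in the pathological and 84.7, 2187 and 1934 CPM in the physiological libraries. Other genes of the list also departed from that order. Pdgfrb and Acta2 stood at 0 CPM in the hepatocyte-rich pathological replicate 3. In the hepatocyte-poor physiological replicate 1 they stood at 4.36 and 2.92 CPM on TMM-scaled totals. The smooth muscle and pericyte list summed to 60.2 to 465 CPM at 12 mmHg and 119 to 477 CPM at 1 mmHg, and the mesothelial list to 15.7 to 211 CPM at 12 mmHg and 102 to 170 CPM at 1 mmHg. In the hepatocyte-rich libraries Smtn and Mylk made up most of the first sum, and Krt8 and Podxl most of the second. Not all genes of these lists followed the sums. Notch3 and Cspg4 of the first and Wt1 of the second had counts only in pathological replicate 1 and physiological replicate 1. The sinusoidal endothelial list had the same order, at 8920, 8383 and 5204 CPM in pathological replicate 3 and physiological replicates 2 and 3. In the hepatocyte-poor libraries it was at 2380 CPM or less. Not all of its genes kept that order. Mrc1 and Flt4 were highest in the hepatocyte-poor physiological replicate 1, at 414 and 130 CPM. Bmp2 and Rspo3 stood at 94.3 and 6.06 CPM there, against 32.9 and 0.283 CPM in the hepatocyte-rich pathological replicate 3. The general endothelial, cholangiocyte and macrophage lists crossed the division by hepatocyte RNA. The cholangiocyte list summed to 6.55 to 25.4 CPM at 12 mmHg and 13.5 to 97.3 CPM at 1 mmHg. The macrophage list summed to 49.6 to 1465 CPM at 12 mmHg and 848 to 1386 CPM at 1 mmHg, with Timd4 at 0 throughout. Its lowest sum was in pathological replicate 2, the library with the lowest Fn1, Lama4, Nid1 and Sparc. The sinusoidal endothelial (564 CPM), general endothelial (876 CPM), mesothelial and cholangiocyte lists were also lowest there. The hepatocyte list, the smooth muscle and pericyte list and the stellate cell list without Reln were lowest in other libraries. The part of these cells in the members' levels was not tested. Of the 60 member values 6 were 0, and 5 of those lay in the replicate 3 libraries, which also had the fewest genes detected. At least 1 library at 0 was seen for 3 of 10 members and for 39.3% of genes.

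**Figure D4:**
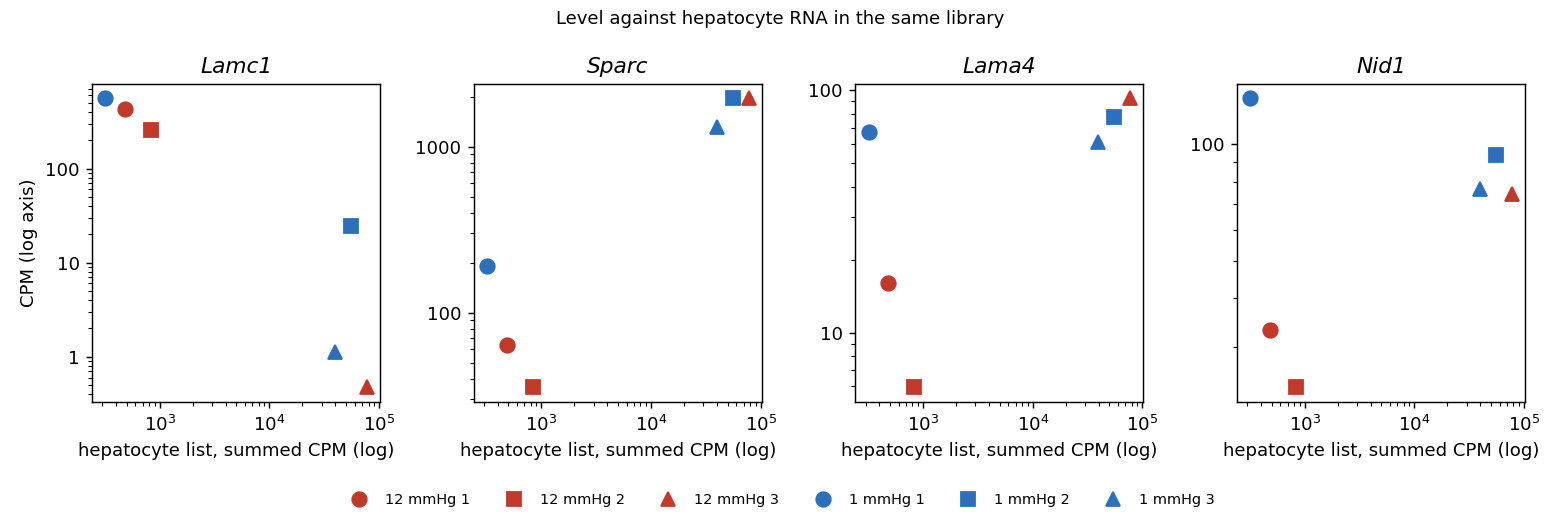
Level of Lamc1, Sparc, Lama4 and Nid1 in CPM against the summed CPM of the hepatocyte list in the same library, both on log axes, with 12 mmHg libraries in red and 1 mmHg libraries in blue. Lamc1 is at 258 to 560 CPM in the 3 hepatocyte-poor libraries and at 0.472 to 24.7 CPM in the others, Sparc runs the other way, and for Lama4 and Nid1 physiological replicate 1 lies with the hepatocyte-rich libraries or above them.

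Likeness of pattern was measured as the root mean square (RMS) difference of log2 CPM over the 6 libraries, each gene centred on its own mean, among genes with a mean log2 CPM of at least 1. Lama4 and Nid1 were each other's nearest member, at 0.73, where 1.69% of 9531 genes were nearer to Lama4 and the median gene was at 2.07. Sparc and Sparcl1 were also each other's nearest member, at 0.94. Lamc1 and Nid2 were 1.87 apart, with 8.75% of genes nearer to Lamc1, and Lama5, whose own mean was under 1, was 1.70 from Lamc1. Lamb1 stood apart from the other members, with Fn1 the nearest at 2.48 and 28.5% of genes nearer. The 2 genes nearest to Lama4 were Rnf144b (0.28) and Shank3 (0.30). Those nearest to Nid1 were Agfg2 (0.25) and Tp53i11 (0.29), to Lamc1 Btbd7 (0.25) and Bach1 (0.31), and to Sparc the interferon-inducible Ifi27 (0.29) and Ly6e (0.31). Every member had a gene this near, with the nearest at 0.24 to 0.41.

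The rest of the pathway gave no call either. Of 6 other laminin chains, 4 were tested, 3 with positive and 1 with negative fold changes, and 0 were called. Lama3 stood at 2.10, 15.2 and 0 CPM in the pathological and 1.47, 16.5 and 24.1 CPM in the physiological libraries. Lama2 stood at 0.249, 1.75 and 29.1 CPM in the pathological and at 1.44, 10.8 and 0 CPM in the physiological libraries. Negative fold changes made up 47.5% of all genes tested. Of 22 other basement membrane genes, 10 were tested, 8 with negative fold changes, a median of -0.74 and 0 called. In 2 of these 10, Col18a1 and Agrn, all 12 mmHg values were under all 1 mmHg values, against 3.05% of all genes. Col18a1, the collagen that yields endostatin, stood at 8.87, 2.17 and 0.0944 CPM in the pathological libraries, against 10.3, 27.2 and 28.8 CPM in the physiological libraries, without overlap and with a log2 fold change of -2.57 (95% CI -6.64 to 1.503). Col4a4, a collagen IV chain, stood at 2.71, 1.18 and 19.4 CPM at 12 mmHg, against 6.72, 36.1 and 32.1 CPM at 1 mmHg. Among partners of fibronectin and the fibulins, 18 of 19 genes tested were negative in fold change, at a median of -1.05, and 0 were called. For Fbln1 (fibulin) the log2 fold change was -4.69 (95% CI -11.08 to 1.70), with levels of 0.427, 0 and 0 CPM in the pathological and 0.197, 7.72 and 3.97 CPM in the physiological libraries. Loxl2, a collagen crosslinking oxidase, stood at 7.26, 1.65 and 0 CPM at 12 mmHg, against 10.3, 17.2 and 46.3 CPM at 1 mmHg, without overlap. This held for 1 of the 19 genes, against 3.05% of all genes. Of the 6 other SPARC family genes only Fstl1 was tested, with a log2 fold change of -1.13 (95% CI -4.69 to 2.43). Of 24 receptors of laminin and fibronectin, 19 were tested, 15 with negative and 4 with positive fold changes, a median of -0.25 and 0 called. Sdc3, a heparan sulfate syndecan, stood at 21.0, 10.4 and 14.5 CPM in the pathological libraries, against 31.4, 39.6 and 60.03 CPM in the physiological libraries, without overlap and with a log2 fold change of -1.51 (95% CI -3.65 to 0.63, edgeR adjusted p = 1.00). It was 1 of the 19 receptors tested to lie so, against 3.05% of all genes. Bcam, the Lutheran receptor of laminin alpha5, stood at 5.45, 4.39 and 76.3 CPM at 12 mmHg, against 10.9, 101 and 117 CPM at 1 mmHg.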

How the data were processed

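Each file holds the expected counts of 1 library, which the authors deposited as estimates of reads per gene with no normalization, per the file headers. The submitters' processing notes name STAR, RSEM and limma with neither version nor role. The sources name no genome build, annotation or strand setting, so antisense and overlapping genes are uncertain. All 60 member values were exactly whole numbers, which does not show how shared reads were assigned.

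After rounding, counts entered edgeR 4.0.16 (R 4.3.3), whose quasi-likelihood F-test was run with TMM factors, filterByExpr and no covariate on 12742 of 32623 genes. P-values were two-sided, with Benjamini-Hochberg adjustment over all genes tested and 0.05 as threshold. Levels of single genes are CPM on TMM-scaled totals, and list sums and Reln are CPM on plain totals. Replicates were numbered in deposition order, and no label pairs them. No 2 libraries agreed within sampling noise (chi-square per degree of freedom of at least 63.0). Alternatives were other scalings and filters, DESeq2 1.42.0, limma-voom (limma 3.58.1), a hepatocyte term, a division by hepatocyte content, a block of neighbouring sample numbers and leaving out each library. The edgeR step was tested on simulated counts with a smaller spread than these data, whose common biological coefficient of variation was 1.39. That test does not show what the step can find at the spread of these data.

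The members and lists were chosen with earlier results of these data known. Named genes are all members, the 2 smallest p in each pathway list and the 2 nearest genes in pattern. Cdh5, Emcn, Reln, Smtn, Mylk, Krt8, Podxl, Notch3, Cspg4, Wt1 and list genes at 0 were named after their values were seen. So were Pdgfrb, Acta2, Mrc1, Flt4, Bmp2, Rspo3 and Agrn. Of the list genes, 7 were not matched. Some marker genes at 0 are not reported here.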

Additional observations from a re-analysis of the deposited data

How the results depend on the processing

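No member was called under any of the 19 alternatives, and 6 to 10 of them had negative fold changes. Over all genes, edgeR called 0 with all libraries, while DESeq2 called 44 (9 higher, 35 lower) and the fit of the hepatocyte-rich libraries, with 1 library at 12 mmHg, called 244 (50 higher, 194 lower). Lamb2, Nid1 and Sparcl1 kept a negative fold change in every fit that was run. Signs turned elsewhere, and the cause was not tested. Lamc1 was -0.0072 with library totals only, -1.58 with the hepatocyte covariate, -0.70 in hepatocyte-poor and -4.75 in hepatocyte-rich libraries. Lama5 was 2.35 with limma-voom, 6.61 with sample weights, 0.24 with the hepatocyte covariate and 2.85 with a block of neighbouring sample numbers, a pairing that no label states. Lamb1 was 1.10 with limma-voom, 1.26 with sample weights, 0.10 with that block and 0.69 in hepatocyte-rich libraries. Nid2 was 0.71 with sample weights, and Lama4 and Sparc were 0.43 and 0.28 in hepatocyte-rich libraries. With 1 library left out, the fold change ran from -1.70 to 9.89 for Lama5, from -0.95 to 0.47 for Lamb1, from -0.61 to 4.24 for Lamc1 and from -0.91 to 0.24 for Fn1. The value of 9.89 comes from a fit without physiological replicate 1, where the other libraries at 1 mmHg hold 0 counts, so it is no bound. The log2 ratio difference ran from 1.86 to 7.38 for Lama5 to Lama4, from -4.33 to -0.25 for Lamb2 to Lamb1, from -2.46 to 3.07 for Nid2 to Nid1 and from -0.88 to 0.69 for Sparcl1 to Sparc. Leaving out both replicate 3 libraries, which have the fewest genes detected, was chosen after seeing the data; 9 of 10 members were then negative, against 51.5% of genes, and 0 were called. With 0 counts for 6 of 60 member values and totals as low as 8925136 counts, members near the floor of 3 counts cannot be ranked between libraries.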
